A study of Mus musculus with 14 samples.

Results

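The genes described here encode the intermediate filament proteins of neurons: Nefl, Nefm and Nefh, the light, medium and heavy neurofilament subunits, Ina, which encodes alpha-internexin, and Prph, which encodes peripherin. Every probe set that the array annotation gives to 1 of these 5 genes alone was taken, which made 11 probe sets out of 45037 and 5 genes out of 18193. Nefl had 2 probe sets, Nefm and Nefh had 1 each, Ina had 3 and Prph had 4. They were measured on Affymetrix whole-genome mouse arrays in 14 retinal ganglion cells (RGCs), 1 array per cell. The cells, named cell 1 to cell 14, came from dissociated retinas of adult mice of mixed background and were picked one by one for red fluorescence. The mice carried 1 copy each of the PV-Cre allele, which puts Cre recombinase under the control of Pvalb, the parvalbumin gene, and of the Ai9 reporter, so that a red cell is one in which Cre was active at some time, and the set is limited to RGCs bright enough to be seen. All cells formed 1 group, there was no untreated or other control, and no source gives the animal a cell came from, so each SD below describes the spread between single cells.

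Neurofilaments are long unbranched polymers that fill large axons and set their calibre. The light subunit forms the core of the polymer together with alpha-internexin or peripherin, while the medium and heavy subunits carry long tails that are phosphorylated in the axon. In the retina these genes are known as markers of ganglion cells, the neurons whose axons form the optic nerve, and antibodies to the heavy subunit are widely used for large ganglion cells. Peripherin is best known from neurons that project to the periphery.

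The values are MAS5 signals on a linear scale. Detection of a probe set means here a signal of 8 times the array's median or more. This threshold lay between 64.2 in cell 14 and 439.7 in cell 1. Between 4191 and 11910 probe sets were detected per cell, fewest in cell 5 and cell 13 and most in cell 12. Of 11 RGC markers measured, each cell showed 6 to 10, and Sncg, Thy1 and Slc17a6 were detected in all 14. Rod markers, 10 in number, gave 8 detections in cell 3, 7 in cell 6 and 1 or 2 in every other cell. Of 8 amacrine markers 5 were detected in no cell. The others were Slc6a9, in 6 cells and up to 10440 in cell 14, Slc32a1, in 3 cells, and Gad2, in cell 1 alone at 4015. Each cell showed 0 to 2 of the amacrine markers and 0 to 2 of 5 astrocyte markers. Of 8 Müller glia markers each cell showed 0 to 4, with 4 in cells 1, 4 and 6, and Glul, the glutamine synthetase gene, was detected in 8 cells, up to 15865 in cell 6. Before hybridization, libraries without Sncg or with a rod or Müller glia transcript had been set aside, so these marker counts are not independent of how cells were kept. Probe sets differ in how they respond to a transcript, and no gene is ranked against another by level.

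The 3 neurofilament subunit genes were detected in every cell, Ina in nearly every cell and Prph in almost none. With 1 probe set per gene, the one with the highest mean log2 signal, Nefl, Nefm and Nefh were detected in 14 of 14 cells, Ina in 13 and Prph in 2. Across all genes, 2.64% were detected in 14 cells, 5.27% in at least 13 cells, 24.8% in at least 7 cells and 58.2% in at least 1 cell. Of the 11 probe sets, 7 were detected in at least 13 cells, as were 3.47% of all probe sets, while 16% of all probe sets were detected in at least 7 cells. At a fixed signal of 1000, Nefl and Nefm were still counted in 14 cells, Ina in 13 and Nefh in 11, while 1.67% of all genes reached that signal in every cell, 6.41% in at least 11 and 15.3% in at least 7.

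**Figure D1:**
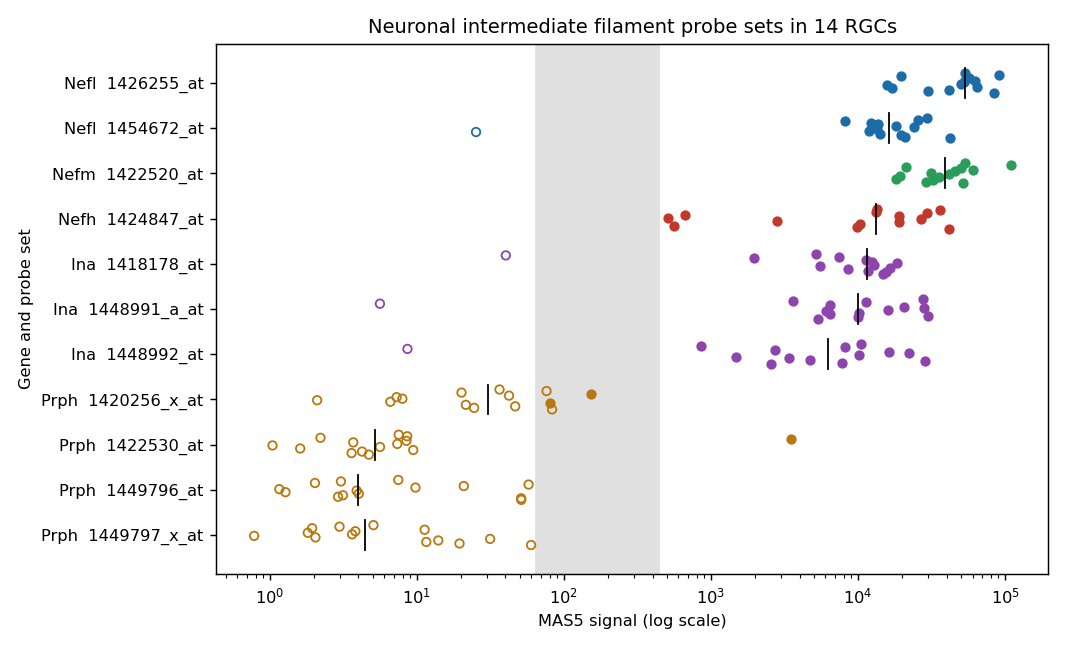
MAS5 signal on a log scale (horizontal axis) of the 11 probe sets (vertical axis) over the 14 cells, where filled points mark detections and open points the rest, with a black line at the median and a grey band over the range of detection thresholds, from 64.2 to 439.7. Nefl, Nefm, Nefh and Ina lie mostly above 1000, while the 4 Prph probe sets lie in or below the band except for 1 cell at 3513.

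Nefl, the core subunit, had a strong signal in all cells. Its probe set 1426255_at ran from 15688 in cell 6 to 91044 in cell 13, with a median of 52905. On the log2 scale the mean was 15.41 ± 0.82 (SD, n = 14), a range of 5.80-fold between the lowest and the highest cell. The lowest signal of this probe set relative to background, in cell 6, was still 139.4 times the threshold there. Cells 4, 6 and 12 stood together at the lower end, at 15688 to 19708, and the other 11 cells began at 29945.

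The second Nefl probe set, 1454672_at, was detected in 13 cells and missed in 1. In those 13 cells its signals ran from 8191 in cell 12 to 41970 in cell 1. In cell 5 it read 25.2, below the threshold of 65.3, while 1426255_at read 64746 in the same cell. The 2 probe sets thus gave opposite calls in that cell. Over the 13 cells where both were detected, the probe sets had r = 0.64 on log2(signal + 32), and cell 5 alone brought r over 14 cells to -0.03. Cell 5 had the fewest detected probe sets (4191) and a ratio of 3′ to 5′ beta-actin signal of 23.8 against a median of 3.44. The same ratio for Gapdh was 1.21 in cell 5 against a median of 1.29. In cell 11, with the highest beta-actin ratio, 106.5, both Nefl probe sets were detected. The part of probe set number or 3′ to 5′ ratio in the gap of cell 5 was not tested.

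Nefm, which carries a long phosphorylated tail, had the smallest SD of log2 signal of the 3 genes detected in every cell. Its only probe set, 1422520_at, ran from 18111 in cell 4 to 108887 in cell 13, with a median of 38694. The mean log2 signal was 15.22 ± 0.71 (SD, n = 14). Its range from the lowest to the highest cell was 6.01-fold, slightly wider than the 5.80-fold of Nefl. As for Nefl, cells 4, 6 and 12 were the lowest, at 18111 to 21128, and the other 11 cells began at 28881. Among the 807 probe sets detected in all 14 cells, or 1.79% of the total, which had a median SD of 1.15, 12.3% had a smaller SD than Nefm and 23.7% a smaller SD than Nefl.

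Nefh, the heavy subunit and the marker used for large ganglion cells, varied far more than Nefm, and than Nefl by probe set 1426255_at. Its probe set 1424847_at read 41411 in cell 1, 36307 in cell 13, 29300 in cell 11, 26638 in cell 7, 19112 in cell 5 and 19032 in cell 9. It read 13349 in cell 14, 13301 in cell 12, 10288 in cell 4 and 9862 in cell 2. These 10 cells formed a continuous upper range. Below them, cell 6 read 2793, and cells 10, 3 and 8 read 668, 562 and 513. The lowest 3 cells lay not far above background, at 2.28 times the threshold in cell 10, 4.61 times in cell 3 and 4.46 times in cell 8. Nefh had no other probe set to read these cells by, and a failure of this probe set there was not tested.

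The spread of Nefh stood near the upper end of what widely detected probe sets showed. Its mean log2 signal was 12.96 ± 2.27 (SD, n = 14), the highest cell was 80.7 times the lowest, and 98.6% of the 807 probe sets detected in every cell had a smaller SD. The second Nefl probe set, 1454672_at, is not among the 807. Its SD was 2.60 with the undetected reading of 25.2 in cell 5 included. The 3 cells below 1000 did not have low signals of the other subunits. Their Nefl signals were 41747 to 54382 and their Nefm signals 31255 to 60339, inside the range of the remaining cells. Cells 3 and 6, with many rod markers, were 2 of the 4 cells with Nefh below 9862, and without them the SD was 2.08. Cells 8 and 10, the other 2, showed 2 and 1 of the 10 rod markers.

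**Figure D2:**
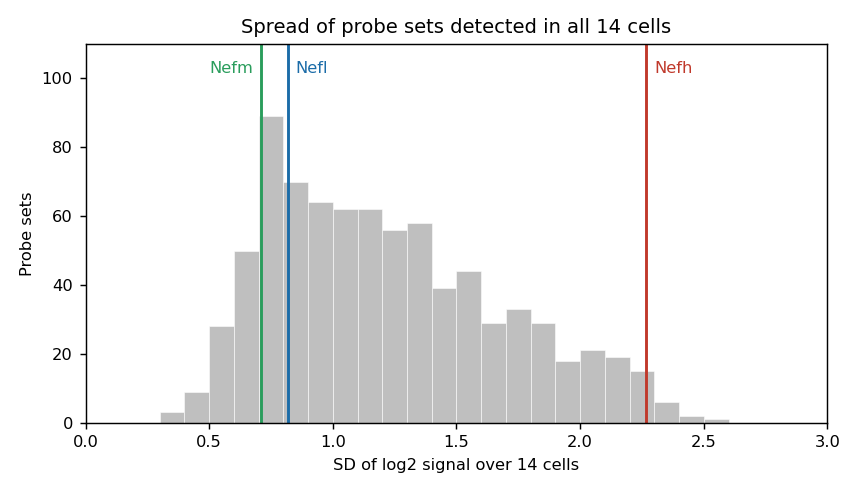
Number of probe sets (vertical axis) by the SD of their log2 signal over 14 cells (horizontal axis), for the 807 probe sets detected in all 14 cells, with lines at Nefm (0.71), Nefl (0.82) and Nefh (2.27). Nefl and Nefm fall toward the lower end of the distribution and Nefh in its upper tail.

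Ina, which encodes the partner of the light subunit in central neurons, was missed in 1 cell or another by each of its probe sets, but never by all of them together. Probe set 1448991_a_at ran from 3628 in cell 13 to 29998 in cell 3 over the 13 cells in which it was detected, and read 5.61 in cell 11. Probe set 1448992_at was detected in the same 13 cells, at 859.9 to 28402, and read 8.63 in cell 11. Probe set 1418178_at was detected in cell 11, at 1952, its lowest detected signal. In cell 13, in turn, 1418178_at read 40.2, below the threshold of 108.3, while the other 2 were detected there.

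By at least 1 probe set Ina was therefore detected in 14 cells, and by all 3 in 12. The pair 1448991_a_at and 1448992_at moved together across cells, with r = 0.96 over 14 cells and 0.93 over the 13 cells where both were detected. In contrast, 1418178_at had r = 0.08 and 0.25 with them over the 12 cells where both of a pair were detected. The order of cells by Ina level thus depended on the probe set: cell 3 was highest by 2 of them and cell 8 by the remaining one. Cell 11, where 2 of 3 failed, had a 3′ to 5′ beta-actin ratio of 106.5, the highest of the 14, and cell 13 had a ratio of 5.59. The part of this in the failed probe sets was not tested.

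**Figure D3:**
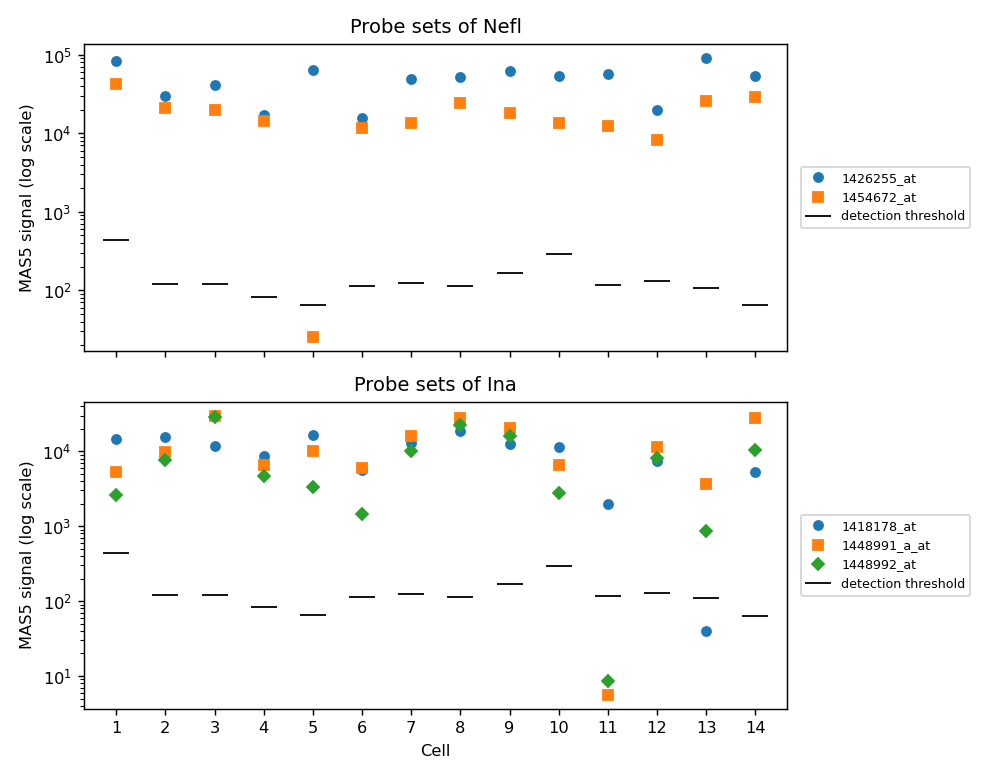
MAS5 signal on a log scale (vertical axis) of the 2 Nefl probe sets (upper panel) and the 3 Ina probe sets (lower panel) in each of the 14 cells (horizontal axis), with the detection threshold of each array as a dash. The Nefl probe set 1454672_at falls below the threshold in cell 5, 2 Ina probe sets fall below it in cell 11 and the other one in cell 13.

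Prph, which encodes peripherin, had a strong signal in a single cell, by 1 of its 4 probe sets. Probe set 1422530_at read 3513 in cell 11, which was 29.9 times the threshold, and at most 9.44 in the other 13 cells, where it was not detected. Of all probe sets 11.3%, or 5074, were detected in 1 cell only, and 233 of these were detected in cell 11. Among the 5074, 9.54% reached a signal of at least 3513 in their cell. The other Prph probe sets did not record this transcript at a like level. Probe set 1420256_x_at, which has the highest mean signal of the 4 and stands for the gene in the counts above, had a signal of 152.3 in cell 11 against a threshold of 117.6, of 79.9 in cell 5 against 65.3, and of 83.0 in cell 1, where it was not detected. Its name marks it as one whose probes may match other sequences. Like 53.1% of all probe sets, 1449796_at and 1449797_x_at were detected in no cell, and 46.9% were detected in at least 1. These 2 had highest signals of 57.4 and 59.7. The detection in cell 5 therefore rests on 1 probe set near background, and that in cell 11 on 2.

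Cell 11 was otherwise well supplied with neurofilament signal, at 56758 for Nefl, 50177 for Nefm and 29300 for Nefh. It was also the cell in which 2 Ina probe sets read below 10. Of 6 genes that the study discusses together with Prph in photosensitive RGCs, a type of cell not labelled as such here, 1 was detected in cell 11. Of all 18193 genes, 4342 were detected in that cell. The 1 gene was S100b, which encodes a calcium-binding protein, at 138.7. This was below its signal of 213.8 in cell 1, where the threshold was higher and it was not detected. The melanopsin gene Opn4 read 2.56 in cell 11 by the probe set used, and was detected in no cell. The transcription factor gene Eomes read 57.8 there, its highest signal, and the kinase gene Prkcq read 49.6, and neither was detected in any cell. Ctxn3 was detected in cell 7 alone, at 7365, and the transcription factor gene Irx6 in cell 13 alone, at 8405. Prph, Ctxn3 and Irx6 thus had their signals above 1000 in 3 different cells. The study placed these genes with Opn4 by correlation in another set of RGCs, typed by their electrical responses, and examined them by in situ hybridization. Of all genes, 9.78% were detected in exactly 1 cell. By either of its 2 probe sets, S100b was detected in 4 cells.

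Nefl, by its chosen probe set 1426255_at, and Nefm rose and fell together across the cells. The 2 genes are next to each other among the protein-coding genes of chromosome 14. Pearson's r on log2(signal + 32) was 0.88 and Spearman's rho 0.83 (n = 14). Without the 2 cells farthest from the Nefl median, cells 4 and 6, r was 0.81, and with each cell left out in turn it lay between 0.86 and 0.91. The log2 difference between the 2 signals had an SD of 0.38, smaller than the SD of either. Both genes are read from the same amplified library and array, under 1 scale factor that puts every array on the same trimmed mean. Cells with few detected probe sets had high signals of both genes: r with the number of detected probe sets was -0.72 for Nefl and -0.68 for Nefm. With each array scaled to the genes detected in all cells, r between the pair was 0.78, and after quantile normalization it was 0.52. For the other Nefl probe set, 1454672_at, r with Nefm, Nefh and the genes ranked below was not computed. That probe set had r = 0.64 with 1426255_at over the 13 cells where both were detected, and -0.03 over 14. The relations of Nefl are therefore not shown by it.

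Within its upper range, Nefh rose and fell with the other subunits. Since Nefh signals fell into separate sets of cells, its r with the other members is given within the upper range only. Within the 10 cells with signals above 9000, r was 0.81 with Nefl and 0.75 with Nefm (rho 0.82 and 0.72). Those 10 cells share the same scaling, and after quantile normalization these values were 0.24 and 0.49. Of the 4 remaining cells, cell 6 was low for all 3 genes, whereas cells 3, 8 and 10 had middling Nefl and the lowest Nefh.

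By its chosen probe set, 1448991_a_at, Ina showed no like relation with the neurofilament genes. Over 14 cells r was -0.10 with Nefl and -0.21 with Nefm, and within the 10 cells with high Nefh it was -0.39 with Nefh (rho -0.24, -0.19 and -0.43). Without cell 11, where its chosen probe set failed, r with Nefl was 0.06. For 1418178_at, which had r = 0.08 with the chosen probe set over 12 cells, r with the neurofilament genes was not computed. The absence of a relation is therefore not shown for Ina by that probe set. The highest Ina signals, 29998 in cell 3 and 27853 in cell 8, came from 2 of the 3 cells with the lowest Nefh, but cell 10, the other one, had an Ina signal of 6475, and cell 14, with Nefh at 13349, had 27648.

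**Figure D4:**
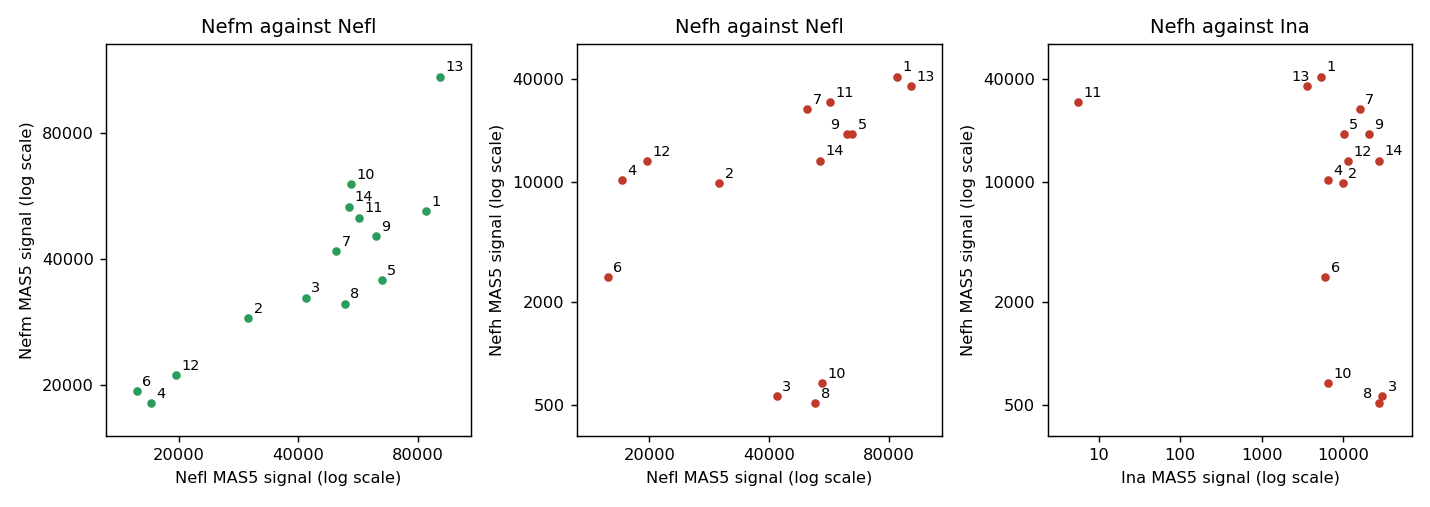
Signals of 3 pairs of genes in the 14 cells, each point labelled with its cell number, both axes on a log scale of MAS5 signal. Nefl is shown by probe set 1426255_at, and Nefm follows it in all cells (r = 0.88). Among the 10 cells with Nefh above 9000, Nefh rises with Nefl (r = 0.81, and 0.24 after quantile normalization). Cells 3, 8 and 10 have the lowest Nefh at middling Nefl. Nefh shows no common course with Ina by probe set 1448991_a_at, where cell 11 lies far to the left at 5.61.

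The genes with the pattern most like each member were named by Pearson's r over 14 cells, among 6882 other genes detected in at least 4 cells. For Nefl the leading gene was Stmn2, which encodes a neuronal stathmin that binds tubulin, with r = 0.94 (rho 0.91). It was followed by Nefm, Rtn3, the ubiquitin hydrolase gene Uchl1 (r = 0.88 each) and the 14-3-3 gene Ywhah (0.87). For Nefm it was Tecr, an enzyme gene of fatty acid elongation, at 0.89, then Nefl, the ATP synthase gene Atp5b (0.87), Rit2 (0.86) and Uchl1 (0.86). All of these were detected in 14 cells. With arrays scaled to the genes found in every cell, Stmn2 had r = 0.88 with Nefl and Tecr 0.78 with Nefm, but of the 5 leading genes 3 remained among the first 5 for Nefl and 1 for Nefm, and after quantile normalization 0 did for either. Sncg, the ganglion cell synuclein gene, had r = 0.81 with Nefl and 0.80 with Nefm. Pvalb, the gene through which the cells were labelled, was not detected in cell 5, at 7.27, and had r = -0.08 and rho = 0.12 with Nefl and r = 0.20 and rho = 0.18 with Nefm.

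For Nefh the same ranking over 14 cells put first Cox6a1, a subunit gene of cytochrome oxidase, then Ptprn, Camk2n2, which encodes an inhibitor of calcium/calmodulin-dependent kinase II, Aplp2, of the amyloid precursor protein family, and Mdm2, which encodes a ubiquitin ligase for p53. Their r of 0.87 to 0.90 joins the separate sets of Nefh cells, and the ranking favours genes that are low in the 3 cells with the lowest Nefh. Within the 10 cells with Nefh above 9000, r was 0.33 for Cox6a1, 0.41 for Ptprn, 0.27 for Camk2n2, 0.65 for Aplp2 and 0.32 for Mdm2. Over 14 cells rho was 0.75, 0.74, 0.61, 0.86 and 0.82 in the same order. As a description of the members of this list, Cox6a1, Camk2n2 and Mdm2 were undetected in cells 3, 8 and 10, and Ptprn in cells 8 and 10. Aplp2 was detected in all cells, at 1546 in cell 10, 2751 in cell 3 and 9079 in cell 8, and from 10438 in cell 6 upward elsewhere. In cell 6, whose Nefh was 2793, Cox6a1 read 216.4 and Mdm2 385.1, while Camk2n2 read 10233 and Ptprn 7943. The other neurofilament genes were not near the top over 14 cells, with Nefl at rank 1876 and Nefm at 1653 of 6882.

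For Ina the leading genes were the prefoldin subunit gene Vbp1 (r = 0.87), the neuroligin gene Nlgn2 (0.82), the proton pump subunit gene Atp6v1d (0.81), Ypel3 (0.77) and Mrfap1 (0.74). Vbp1 and Nlgn2 were undetected in cell 11 only, as was the Ina probe set used, and their rho with Ina was 0.35 and 0.37. Atp6v1d was detected in all cells and had rho of 0.76. The other members stood far down the list for Ina, with Nefl at rank 4123, Nefm at 4990 and Nefh at 6070 of 6882.

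Of the other intermediate filament genes, most were not detected or were detected in few cells, as were most genes on the array. Of 13 other cytoplasmic filament genes, 8 were detected in no cell, as were 41.8% of all genes, 3 in 1 to 3 cells and 2 in at least 7, a median of 0 cells against a median of 1 over all 18193 genes. Vim, the filament gene of glia and of immature neurons, was detected in cell 4 alone, at 854.3. Gfap and Nes reached at most 63.3 and 75.7, and the keratin genes Krt8, Krt18 and Krt19 were not detected. Sync, counted among the undetected genes, was found in 3 cells by another of its probe sets. Synm was detected in 3 cells at 361.5 to 776.8, and Des in cell 5 alone, at 136.7, with an undetected signal of 185.0 in cell 10. Iffo1 and Iffo2, which encode proteins with a filament domain, were found in 10 and 7 cells. Among the nuclear lamin genes, Lmna was detected in 8 cells, Lmnb2 in 4 and Lmnb1 in none.

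Genes whose products move, link or modify filaments were, by contrast, widely detected. Of 13 genes for transport and cross-linking, 12 were in at least 7 cells, where 24.8% of all genes were, and 5 were in all 14, a median of 13 cells. Kif5a and Kif5c, kinesins that carry neurofilaments, ran from 2027 to 52351 and from 7032 to 40283, and Kif5b was in 5 cells, or 11 by any of its probe sets. The dynein heavy chain gene Dync1h1 was in 14 cells, Plec and Mapt, for plectin and tau, in 13, and Dst, for dystonin, in 12. Of 11 kinase and phosphatase genes, 9 were in at least 7 cells and 2 in 6, a median of 9. Cdk5, whose kinase phosphorylates the tails of the medium and heavy subunits, was in 14 cells at 1545 to 21562, and its activators Cdk5r1 and Cdk5r2 were in 9 and 6. Mapk10 and Ppp2ca were in all 14 cells.

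Genes of filament turnover and chaperones were split. Of 9 measured, 5 were in at least 7 cells, where 24.8% of all genes were, and 4 in 2 or 3, with a median of 8 cells against 1 over all genes. The ubiquitin ligase genes Trim2, whose product acts on the light subunit, and Stub1 were in 13 cells each. The small heat shock protein gene Hspb8 was in 11 cells, but Hspb1 and Cryab, for related chaperones, were in 2 each, Hspb1 in cells 3 and 11. Of 4 genes for proteins that bind or are tied to neurofilament transcripts, Sod1 was in 14 cells, Ptbp2 in 11, Elavl4 in 8 and Tardbp in 6, or 11 by any of its probe sets. That made 3 of 4 in at least 7 cells, with a median of 9.5. Of 4 genes linked to alpha RGCs, the large ganglion cells rich in Nefh, each was detected in 1 to 4 cells, a median of 2.5 against 1 over all genes. Kcnip2 was in cell 1 alone, at 17961, Kcng4 in cells 1, 7 and 12, and Pank1 in cells 2 and 7, or 6 cells by any of its probe sets. By the probe sets used, these detections all lay in the upper range of Nefh, which held 10 of the 14 cells. Pigo was in cells 2, 6, 10 and 11, so that it was found in cells 6 and 10, with low Nefh, as well as in cells 2 and 11, in the upper range. A listed gene that was not detected may still have been expressed.

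**Figure D5:**
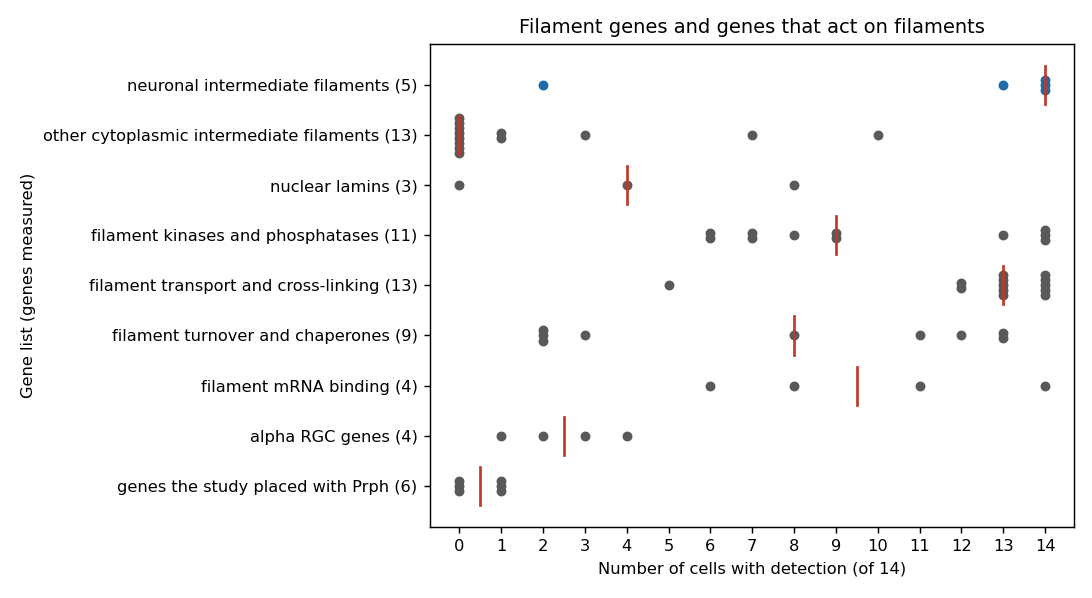
Number of cells with detection (horizontal axis, 0 to 14) for each gene of 9 lists (vertical axis, with the number of genes measured in brackets), one point per gene, with the median of each list as a red line and the neuronal filament genes in blue. The medians run from 14 cells for the neuronal filament genes and 13 for transport and cross-linking to 0 for the other cytoplasmic filament genes.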

How the data were processed

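RNA of each RGC was copied into cDNA with an oligo-dT primer, and the cDNA was tailed, amplified by PCR and biotinylated, which favours 3′ ends. The authors deposited a signal intensity per probe set, computed with MAS5, whose version the sources used here do not give. A trimmed mean of 500.0 on every array, with 2% removed at each end, showed the scaling. The paper names more than 1 facility for the hybridization of its arrays, which include arrays outside this series. It does not say whether these 14 were split between facilities, and the facility of an array is not known here. Of 45037 probe sets without controls, 34945 had 1 gene symbol, and 34741 of these were matched by gene number to a mouse gene table (GRCm38.p6, for names and gene order only). Each gene was represented by the probe set whose mean log2 signal was highest. Correlations used log2(signal + 32) and are descriptions without p-values. No groups were tested, and precision is limited by the number of arrays. Alternatives were detection at 4 or 16 times the array median or at a signal of 1000, a smaller and a larger pseudocount, other scalings and cells left out. The members, lists and named genes (list members and the 5 most similar genes per member, detected in at least 4 cells) were chosen with earlier results of these data known. The scaling to genes detected in all 14 cells and the limit of 9000 for Nefh were added after seeing the data. Some listed genes were not analysed here. Ranking by r was tested on simulated data. Python 3.11.15, numpy 2.4.6 and pandas 2.3.3 were used.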

Additional observations from a re-analysis of the deposited data

How the results depend on the processing

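Of 212 recomputed values, 175 stayed within the limit set for a change. For r that limit was a standard error computed from the values with single cells left out. Those values could thus hardly exceed it, and they made up 71 of the 175, so the total is no measure of robustness. Detection counts of Nefl, Nefm, Nefh and Ina stayed within their limit under every alternative. For Prph, with 2 cells by its chosen probe set, 1420256_x_at, the count was 4 at 4 times the median, 0 at 16 times and 0 at a signal of 1000. It was 1 with probe sets averaged and 1 without cells 5 and 13. By probe set 1422530_at the count was 1 at 16 times the median and 1 at a signal of 1000, in cell 11. The SD of Nefl was 0.49 after quantile normalization and 0.61 with arrays scaled to the genes detected in all cells. That of Nefm was 0.42 and 0.53, and 0.88 with arrays centred on their medians. For Nefl and Nefm, r was 0.52 after quantile normalization, 0.78 with scaling to common genes, rho 0.83, and 0.81 without cells 4 and 6 (0.86 to 0.91 with single cells left out). For Nefl and Nefh, r was 0.24 after quantile normalization (0.76 to 0.86 with single cells left out). For Nefm and Nefh it was 0.49, and 0.61 without cells 13 and 4 (0.68 to 0.84). For Ina with Nefl and Nefm, r changed sign to 0.133 and 0.0818 with arrays divided by their medians, and the range with single cells left out was -0.14 to 0.0567 for Nefl, positive without cell 11 only. For Nefh and Ina it was -0.14 with arrays divided by their medians and -0.24 with scaling to common genes. The cause of these moves was not tested. Of the 5 most similar genes, quantile normalization kept 0 for Nefl, 0 for Nefm and 3 for Nefh. Spearman's rho kept 2 for Nefl, 1 for Nefm, 2 for Nefh and 0 for Ina, scaling to common genes kept 3 for Nefl and 1 for Nefm, and the larger pseudocount kept 3 for Ina. Among the lists, the median number of cells was 1 for other cytoplasmic filaments and 1.5 for genes placed with Prph at 4 times the median. At a signal of 1000 it was 3 for turnover and chaperones, 1 for alpha RGC genes and 0 for genes placed with Prph. Signals near background limit the Prph count and the weak detections of listed genes.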
